A study of Mus musculus with 8 samples.

Results

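The genes examined here encode the liver's machinery for making and conjugating bile acids, together with the hepatocyte receptor that holds this synthesis in check. They were chosen by symbol alone, as Cyp7a1, Cyp7b1, Cyp8b1, Cyp27a1, Baat, Slc27a5, Hsd3b7, Akr1d1, Amacr and Fgfr4, and all 10 were found among the 24451 genes measured. Total liver RNA from 8 mice was sequenced to ask how gene expression differs when hepatocytes lack Brap, a ubiquitin ligase also known as BRCA1-associated protein. The 4 Brap LKO mice carried 2 floxed Brap alleles and an Albumin-Cre transgene, which is active in hepatocytes. The 4 Brap F/F control mice carried the same floxed alleles without Cre, so Cre itself differed between the groups along with the deletion. All were C57BL/6 mice, 18 wk old and fasted for 6 h, the sampled tissue was the left lobe, and the study states that male animals were used. Whole tissue was sequenced, so fewer cells of a type and less RNA per cell cannot be told apart.

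Bile acids are made from cholesterol in hepatocytes by a classical pathway, which Cyp7a1 opens by hydroxylating the sterol ring, and by an acidic pathway, in which Cyp27a1 oxidizes the side chain before Cyp7b1 hydroxylates the ring. Further enzymes reshape the ring and shorten the side chain, and the products are joined to taurine or glycine before export into bile. Bile acids repress their own synthesis through the nuclear receptor FXR (Nr1h4), its target SHP (Nr0b2), and the intestinal hormone FGF15, which acts on hepatocytes through Fgfr4 and its coreceptor Klb.

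No member passed the threshold in Brap LKO livers. Normalized counts, meaning reads on a gene divided by a scaling factor for its liver, were compared as log2(normalized count + 1) with limma, and a gene was called at an adjusted p under 0.05 over the 15352 genes with a mean of at least 5. In that fit, 118 of all genes were called (0.769%), 102 higher (0.664%) and 16 lower (0.104%), and 0 of 10 members. At an unadjusted p under 0.05 there were 2429 genes (15.8%) and 1 member, Cyp7a1. Count models on the recovered reads also called 0 members, where edgeR called 122 genes in all (0.795%) and DESeq2 called 625 (4.07%). The groups overlapped in all 10 members, whereas they did not overlap in 1515 of the genes tested (9.87%). The fitted difference was above 0 for 4 members (48.0% of all genes) and below 0 for 6 (52.0% of all genes), and its median was -0.01 on the log2 scale, beside -0.01 for all genes. Precision differed widely among the members: the 95% interval lay within 1 log2 unit of 0 for 8 members and within 0.5 for 5. For Cyp7a1, Cyp7b1 and the remaining wider intervals, larger differences were therefore not excluded by these livers.

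**Figure D1:**
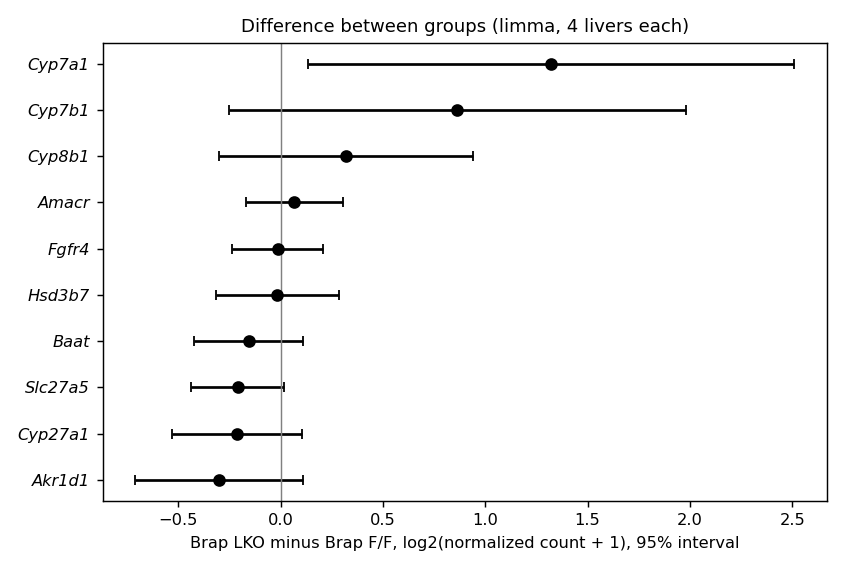
Fitted difference of each member between Brap LKO and Brap F/F livers on the log2(normalized count + 1) scale (x axis), with its 95% interval from limma and 4 livers in each group. The Cyp7a1 interval, 0.13 to 2.51, lies above 0, and the intervals of the other members include 0.

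Between 26280884 and 33313914 reads per liver fell on genes, and no member had fewer than 414 reads in any liver, so counting error was small beside the spread between mice. Together the members took 0.279 to 0.337% of the reads in Brap LKO livers and 0.245 to 0.266% in Brap F/F livers. The denominator of these shares is all reads on genes, unlike the scaling of the normalized counts. With each liver scaled to the same total, the median log2 difference of all genes was also above 0, at 0.15. Shares of other gene sets were not computed, so these shares are not read as a trait of the members. Brap itself differed by -0.07 on the log2 scale (adjusted p = 0.631, limma). Its counts cover the whole gene, and reads on the floxed exons were not analysed separately, so they do not check the labels. By the animal numbers given in the labels, a lower series holds Brap LKO replicates 1 to 3 and Brap F/F replicate 1, and a higher series holds the other 4 livers. Series and group cannot be told apart fully, because each series holds only 1 liver of one of the groups. Brap F/F replicates 2 and 3 stood apart from the other livers in several sex-biased genes, as described below with Cyp7b1, and the members' differences are given with and without them.

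**Figure D2:**
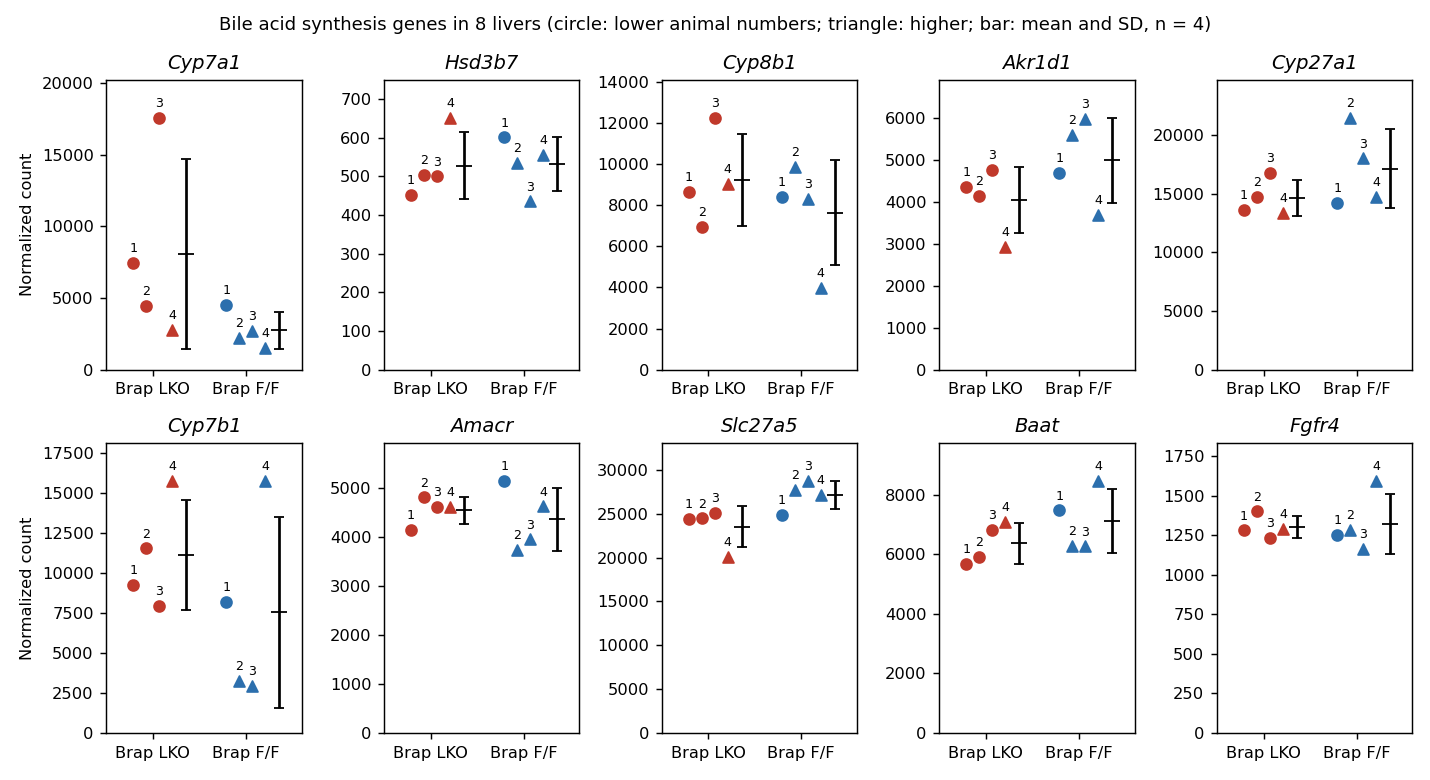
Normalized counts of the 10 members in each liver (y axes, starting at 0), with the replicate number beside each point, the mean and SD of 4 livers as black bars, circles for the lower and triangles for the higher animal numbers. The groups overlap in every panel. Cyp7a1 and Cyp7b1 have the widest spread.

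Cyp7a1 (ENSMUSG00000028240; mm10 chromosome 4, 6265612 to 6275633, reverse strand) encodes the rate-limiting enzyme of the classical pathway. Its normalized counts were 7458, 4443, 17594 and 2752 in Brap LKO replicates 1 to 4, and 4500, 2224, 2690 and 1521 in Brap F/F replicates 1 to 4. Replicates 1 and 3 of the Brap LKO group lay above all controls, while replicates 2 and 4 lay within the control range. The means were 8062 ± 6646 and 2734 ± 1272 (SD, n = 4 each), a ratio of 2.95. The fitted log2 difference was 1.32 (standard error 0.529, 95% interval 0.13 to 2.51, unadjusted p = 0.0327, adjusted p = 0.277, limma). A two-sided exact permutation test over the 70 arrangements of the livers gave p = 0.0857, where the smallest possible p is 0.0286. Without Brap LKO replicate 3, the liver with the highest count, the difference was 0.83 (adjusted p = 0.402, limma), and without controls 2 and 3 it was 1.27.

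Cyp7a1 was the only member whose 2 animal number series did not overlap, which held for 2.57% of all genes. Its counts were 4443 to 17594 in the lower series and 1521 to 2752 in the higher series. In a limma fit of group and series together, the lower series was higher by 1.35 on the log2 scale (standard error 0.448, unadjusted p = 0.0157, adjusted p = 0.99997), and the group difference was 0.65 (adjusted p = 0.585). No gene was called for series in that fit, and 625 had an unadjusted p under 0.05 (4.07%). A series difference in Cyp7a1 is therefore not shown, and this comparison was added after seeing the data. Within the lower series the Brap LKO mean exceeded the single control by 0.89, and within the higher series the single Brap LKO liver exceeded the control mean by 0.40, both without a test.

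Nr0b2, the corepressor SHP, which represses Cyp7a1, varied the other way. Its normalized counts were 348, 514, 165 and 708 in Brap LKO replicates 1 to 4, and 245, 765, 552 and 752 in the controls. The liver with the most Cyp7a1, Brap LKO replicate 3, had the least Nr0b2. A link between the 2 genes was not tested. The Nr0b2 counts of the 2 series did not overlap either, at 165 to 514 in the lower and 552 to 765 in the higher, and the lower series was lower by a log2 difference of -1.33 (unadjusted p = 0.00563, adjusted p = 0.99997, limma). Between the groups, the log2 difference of Nr0b2 was -0.47 (adjusted p = 0.651, limma), and it changed sign to 0.19 with series in the fit.

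**Figure D3:**
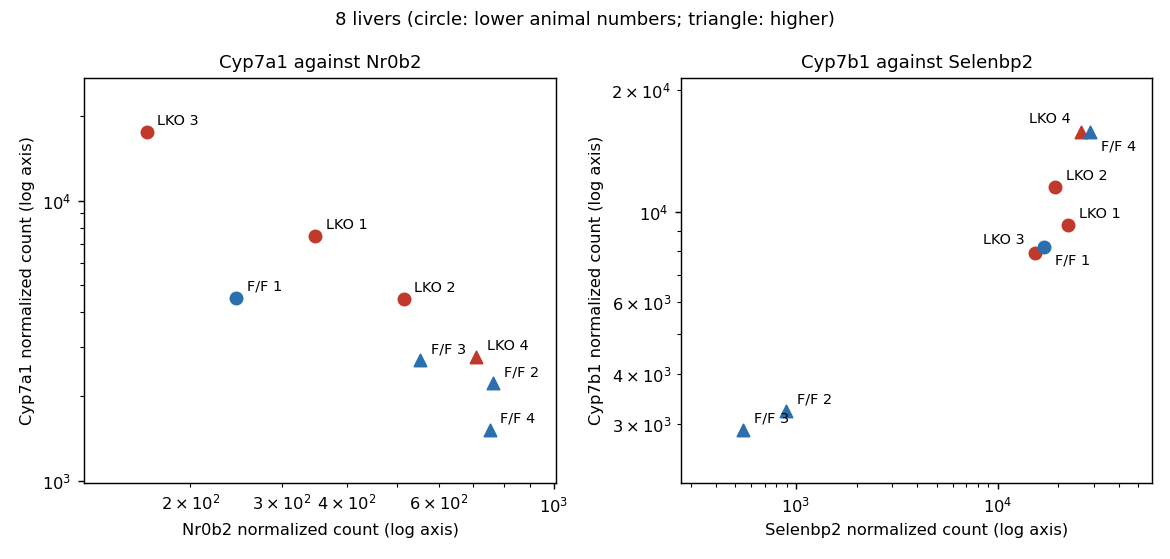
Left, normalized counts of Cyp7a1 (y axis) against Nr0b2 (x axis); right, Cyp7b1 (y axis) against the male-biased gene Selenbp2 (x axis), in 8 livers on log axes. Brap LKO replicate 3 has the most Cyp7a1 and the least Nr0b2, and Brap F/F replicates 2 and 3 lie apart at low Cyp7b1 and low Selenbp2. A link within either pair was not tested.

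Hsd3b7, Cyp8b1 and Akr1d1 act on the ring after Cyp7a1. The stretch around the start site is printed for Cyp8b1 and Akr1d1, since both contain a motif of the nuclear receptor kind that regulates this pathway. The windows come from RefSeq (GRCm38.p6, the same build as mm10) and run from 250 bases before to 50 bases after the start of the gene, 5′ to 3′ on its own strand. They were given for 5 of the members. Capitals mark the motif matches.
Cyp8b1, chr9:121916256-121916555, reverse strand: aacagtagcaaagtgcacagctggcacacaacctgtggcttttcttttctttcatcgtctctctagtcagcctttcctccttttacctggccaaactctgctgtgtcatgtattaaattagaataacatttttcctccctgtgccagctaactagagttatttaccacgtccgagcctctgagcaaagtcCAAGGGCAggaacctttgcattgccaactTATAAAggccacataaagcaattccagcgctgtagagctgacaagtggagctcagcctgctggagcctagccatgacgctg
Akr1d1, chr6:37529923-37530222, forward strand: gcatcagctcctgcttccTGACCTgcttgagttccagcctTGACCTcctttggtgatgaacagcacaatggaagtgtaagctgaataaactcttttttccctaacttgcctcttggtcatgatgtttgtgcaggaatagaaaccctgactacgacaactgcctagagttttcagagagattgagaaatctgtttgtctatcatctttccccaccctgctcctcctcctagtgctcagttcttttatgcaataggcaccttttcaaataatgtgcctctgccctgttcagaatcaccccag
The Cyp8b1 window held CAAGGGCA, a match to the LRH-1 type motif CAAGGNCA, at position -60 from the start, and a TATAAA at -31. The Akr1d1 window held TGACCT at -232 and -210, which is the nuclear receptor half-site searched as AGGTCA, read on the other strand. Both strands of 32851 windows of the same length were searched. AGGTCA occurred in 16.3% of them, CAAGGNCA in 6.71% and TATAAA in 13.6%, while the E-box CACGTG occurred in 7.15%. One form of the LRH-1 type motif contains the half-site, so these can overlap. The windows of Cyp27a1, Hsd3b7 and Fgfr4 held none of these motifs. These matches describe letters only, and binding was not measured.

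Cyp8b1 (ENSMUSG00000050445; chromosome 9, 121914356 to 121916305, a gene of 1 exon) adds the hydroxyl group that makes cholic acid and so sets the ratio of cholic acid to muricholic and chenodeoxycholic acids. Its counts were 8640, 6960, 12279 and 9043 in Brap LKO replicates 1 to 4 and 8397, 9881, 8330 and 3988 in the controls. The highest value was again in Brap LKO replicate 3, and a single control, replicate 4, was low. Between the groups, Cyp8b1 differed by 0.32 on the log2 scale (95% interval -0.30 to 0.94, adjusted p = 0.595, limma), and it was 0.03 without Brap F/F replicate 4 and 0.64 without controls 2 and 3. The quotient of Cyp7a1 over Cyp8b1 counts was 0.863, 0.638, 1.43 and 0.304 in Brap LKO livers and 0.536, 0.225, 0.323 and 0.381 in controls, so it overlapped between the groups.

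Akr1d1 (ENSMUSG00000038641; chromosome 6, 37530173 to 37568815) reduces the double bond of the sterol ring, which gives bile acids their bent shape. It was counted at 4357, 4139, 4761 and 2934 in Brap LKO livers and at 4695, 5585, 5986 and 3692 in controls. Controls 2 and 3 were the highest livers, and the lowest was Brap LKO replicate 4. Akr1d1 had a log2 difference of -0.30 (95% interval -0.71 to 0.11, adjusted p = 0.448, limma), and it was -0.06 without controls 2 and 3.

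Hsd3b7 (ENSMUSG00000042289; chromosome 7, 127800604 to 127803802) oxidizes the product of Cyp7a1 and Cyp7b1 and is shared by both pathways. Its counts were 453, 504, 500 and 652 in Brap LKO livers and 601, 534, 435 and 555 in controls, with no order by group. On the log2 scale Hsd3b7 differed by -0.02 (95% interval -0.32 to 0.29, adjusted p = 0.965, limma), and by -0.15 without controls 2 and 3. Its exons share 1729 bases (62.4%) with 9430064I24Rik on the opposite strand and 1717 bases (62.0%) with Gm49388 on the same strand. The counting tool, annotation release and use of strand are not given in the sources used here, so the Hsd3b7 count is uncertain. Use of strand alone would not settle it, because Gm49388 lies on the same strand. No other member overlapped an exon of another gene.

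In the acidic pathway, Cyp27a1 (ENSMUSG00000026170; chromosome 1, 74713574 to 74737892) encodes the mitochondrial sterol hydroxylase of the side chain. Its counts were 13612, 14710, 16762 and 13389 in Brap LKO livers and 14214, 21506, 18011 and 14757 in controls. Controls 2 and 3 were the highest of the 8 livers. The log2 difference was -0.21 (95% interval -0.53 to 0.10, adjusted p = 0.487, limma), and it was 0.0076 without these 2 controls.

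Cyp7b1 (ENSMUSG00000039519; chromosome 3, 18071950 to 18243338) encodes the oxysterol hydroxylase, which is more abundant in male than in female mouse liver. Its counts were 9273, 11531, 7950 and 15731 in Brap LKO replicates 1 to 4 and 8213, 3234, 2914 and 15755 in the controls. Controls 2 and 3 were far below the other 6 livers, and control 4 was the highest of all. The group means were 11121 ± 3410 and 7529 ± 5997 (SD, n = 4 each), and the log2 difference was 0.86 (standard error 0.496, 95% interval -0.25 to 1.98, adjusted p = 0.427, limma; exact permutation p = 0.343). Without controls 2 and 3, an alternative chosen after seeing the data, the difference was -0.08 (adjusted p = 0.920, limma).

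The same 2 control livers were low in many, but not all, of the male-biased genes examined. Selenbp2 was 896 and 548 in them, against 16947 and 28756 in controls 1 and 4 and 15392 to 26041 in Brap LKO livers. Mup11, a major urinary protein gene, was 641 and 486 there, against 4360 and 5553 in the other controls. Other male-biased genes were not low there. Elovl3 was 5237 and 3396, against 1390 and 1381 in the other controls. Cyp4a12a was 6098 and 3613, against 4395 and 1917, and Cyp4a12b was 1735 and 1336, against 1230 and 931. Cyp2d9 was 32681 and 31084, against 27885 and 30860. The female-biased Cyp2b9 was high in these 2 livers, at 831 and 2406, against 84.4 and 10.8 in the other controls. Of 11 male-biased genes tested, controls 2 and 3 were the 2 lowest livers for 7 and the 2 highest for 1, and of 8 female-biased genes they were the 2 highest for 4. Over all genes tested, these controls were the 2 lowest livers for 11.8% and the 2 highest for 14.4%. They were the 2 lowest or the 2 highest livers for 5 of the 10 members (lowest in Cyp7b1 and Amacr, highest in Cyp27a1, Akr1d1 and Slc27a5), beside 26.2% of all genes tested. Between the groups, 10 of 11 male-biased genes had a fitted difference above 0 with a median of 0.75, none was called by limma and 4 had an unadjusted p under 0.05. Without controls 2 and 3, 8 of 11 lay above 0 with a median of 0.30, and Cyp4a12b, higher in these 2 controls than in the others, was called. With all livers, their summed normalized counts were 114254 to 122526 in Brap LKO livers and 54029 to 119733 in controls.

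Amacr (ENSMUSG00000022244; chromosome 15, 10981756 to 10996626) inverts the side chain of bile acid intermediates so that peroxisomes can shorten it. Its counts were 4142, 4810, 4617 and 4612 in Brap LKO livers and 5149, 3734, 3954 and 4628 in controls. The Brap LKO livers lay inside the control range. This gave a log2 difference of 0.07 (95% interval -0.17 to 0.31, adjusted p = 0.784, limma), and it was -0.11 without controls 2 and 3.

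The conjugation enzymes had the narrowest intervals of the enzymes with negative differences. Slc27a5 (ENSMUSG00000030382; chromosome 7, 12988346 to 12998192) encodes bile acyl-CoA synthetase, which activates bile acids for conjugation. Its counts were 24427, 24486, 25138 and 20041 in Brap LKO replicates 1 to 4 and 24906, 27687, 28758 and 27202 in the controls. The groups overlapped only through Brap LKO replicate 3, which lay just above control 1. The log2 difference was -0.21 (standard error 0.101, 95% interval -0.44 to 0.02, adjusted p = 0.352, limma; exact permutation p = 0.0571). The difference was -0.13 without Brap LKO replicate 4, the lowest liver, and -0.15 without controls 2 and 3, the highest.

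Baat (ENSMUSG00000039653; chromosome 4, 49489422 to 49506557) transfers the activated bile acid to taurine or glycine. Its counts were 5670, 5896, 6806 and 7088 in Brap LKO livers and 7469, 6268, 6263 and 8463 in controls, so all Brap LKO livers lay below controls 1 and 4. The log2 difference was -0.16 (95% interval -0.42 to 0.11, adjusted p = 0.544, limma), and it was -0.33 without controls 2 and 3. The quotient of Baat over Slc27a5 counts averaged 0.274 ± 0.0554 in Brap LKO livers and 0.264 ± 0.0485 in controls (SD, n = 4 each).

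Fgfr4 (ENSMUSG00000005320; chromosome 13, 55152640 to 55168759) encodes the receptor for FGF15. It was the most even member in Brap LKO livers, at 1281, 1401, 1232 and 1292, beside 1251, 1283, 1162 and 1594 in controls. The log2 difference was -0.01 (95% interval -0.24 to 0.21, adjusted p = 0.954, limma), and it was -0.12 without controls 2 and 3. Its coreceptor Klb was 905 or higher in Brap LKO replicates 1, 3 and 4 and 813 in replicate 2, and it ranged from 567 to 983 in controls (log2 difference 0.18, adjusted p = 0.633, limma).

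Per kilobase of merged exon, the members spanned a wide range of levels. In Brap F/F livers the order of mean normalized counts per kilobase was Slc27a5 at 11131, Cyp27a1 at 7879, Cyp8b1 at 3923, Baat at 3666, Cyp7b1 at 3476, Akr1d1 at 1725, Amacr at 1675, Cyp7a1 at 655, Fgfr4 at 373 and Hsd3b7 at 192. Neighbors from Cyp8b1 to Amacr overlapped in their liver ranges, as did Cyp7a1 and Fgfr4, and the other neighbors did not. The rate-limiting enzyme thus stood below most enzymes of its own pathway in transcript level in control livers. In Brap LKO livers Slc27a5, at 9649, was again the highest and Cyp27a1, at 6727, the next, while Cyp7b1 ranked 3 by its mean of 5134 and Cyp7a1 ranked 6 by its mean of 1931. Neighbors in that order from Cyp27a1 to Akr1d1 overlapped. The level and last place of Hsd3b7 are uncertain, because 62.0% of its exon bases are shared with Gm49388 on the same strand.

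**Figure D4:**
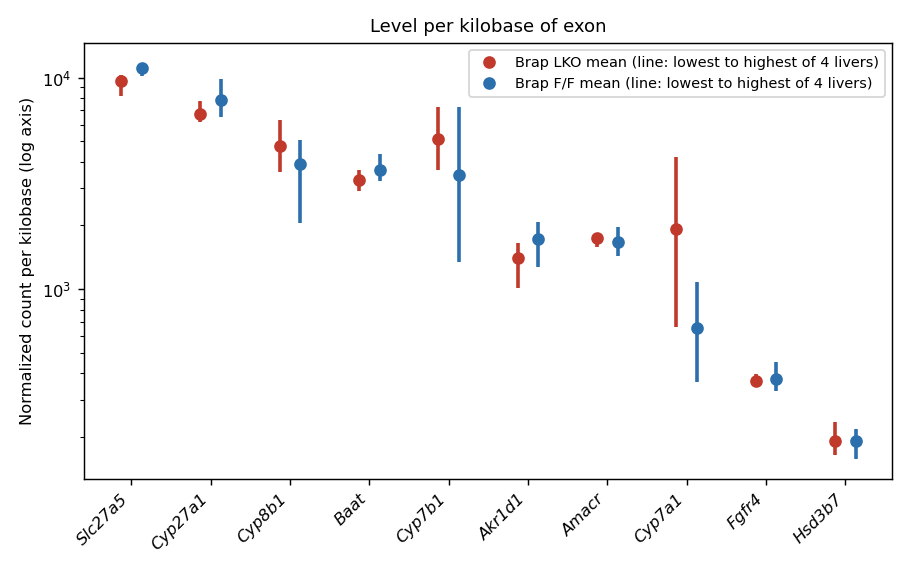
Mean normalized count per kilobase of exon (y axis, log scale) of each member in Brap LKO and Brap F/F livers, with vertical lines from the lowest to the highest of 4 livers. Slc27a5 is highest and Hsd3b7 lowest in both groups, and Cyp7a1 and Cyp7b1 have the longest lines. The Hsd3b7 level is uncertain, because its exons are shared in part with other genes.

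Cyp7a1 and Cyp7b1 varied most between mice of the same group. Their residual SDs on the log2 scale were 0.931 and 0.873, beside a median of 0.214 for all genes, and 2.75% and 3.49% of genes had a larger one. Slc27a5 had the lowest residual SD of the members, 0.124. The highest liver exceeded the lowest 11.6-fold for Cyp7a1 and 5.41-fold for Cyp7b1.

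Among the 45 pairs of members, with group means removed and over 8 livers that share their scaling factors, no correlation passed an adjusted p of 0.05. The closest was between Akr1d1 and Cyp7b1, with Pearson r = -0.893 and Spearman rho = -0.952 (exact permutation within groups, p = 0.00174 for each, the smallest possible; adjusted p = 0.0781). Without the 2 livers farthest from the median of Akr1d1, r was -0.910, and the Cyp7b1 values were not used to choose them. Of the 10142 other genes with a mean of at least 100, those most correlated with Cyp7a1 after removal of group means were Gclm (r = 0.972), Wdr36 (0.968) and Zfp111 (0.963). Those closest to Cyp7b1 were Stard13 (r = 0.996) and Fkbp11 (0.994). For Akr1d1 they were Suv39h1 (r = 0.994), Tbca (0.988) and S100a13 (0.988), and for Slc27a5 Ndufs3 (r = 0.989), Selenoo (0.983) and Cuta (0.982), all over 8 livers. No test was run on these correlations. The highest of 10142 values over 8 livers are large by selection alone, so these genes are not shown to vary with the members.

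The surrounding pathway was described by lists of other genes, none of which had a called gene. Genes whose groups did not overlap are named, and 9.87% of all genes tested had such a separation. Brap LKO livers lay wholly below controls in 1 further synthesis enzyme, 1 transcription regulator, 1 signaling gene and 2 transport genes. They lay wholly above in 1 gene each of the regulator, signaling and transport lists. The electron donor and cholesterol supply lists had 0. These separations are not read as a trait of the pathway. Of 11 further synthesis enzymes tested, 3 had a difference above 0 and 8 below, with a median of -0.09. Acox2, the peroxisomal oxidase of the bile acid side chain, was 6802 to 7419 in Brap LKO livers and 7541 to 9017 in controls, so the groups did not overlap (log2 difference -0.28, adjusted p = 0.138, limma). Scp2, the most abundant gene of that list, differed by 0.08 (adjusted p = 0.775, limma). Of the 5 electron donor and sterol supply genes, 1 lay above 0 and 4 below, and Por, the reductase that feeds electrons to the microsomal P450 enzymes, differed by -0.36. Controls 2 and 3 had the most Por, and without them its difference was -0.15.

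Of 19 nuclear receptors and transcription regulators, 5 lay above 0 and 14 below, with a median of -0.08. Prox1, a corepressor of Cyp7a1, did not overlap between groups, at 7989 to 9263 in Brap LKO livers and 6140 to 7834 in controls (log2 difference 0.35, standard error 0.0908, adjusted p = 0.111, limma). Nr1h3, the oxysterol receptor LXRalpha, was lower without overlap, at 2419 to 2694 against 2830 to 3008 (log2 difference -0.20, adjusted p = 0.181, limma). Prox1 and Nr1h3 share a few exon bases with Prox1os and Gm13783. FXR (Nr1h4) differed by 0.03 (adjusted p = 0.867) and Hnf4a, the most abundant regulator, by 0.05.

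Of 14 tested genes of FGF15 and FGFR4 signaling, 4 lay above 0 and 10 below, with a median of -0.04. The adaptors Frs2 and Grb2 did not overlap between groups. Frs2 was 1009 to 1153 in Brap LKO livers against 972 to 1003 (log2 difference 0.13, adjusted p = 0.365, limma), and Grb2 was 1167 to 1225 against 1289 to 1402 (log2 difference -0.18, adjusted p = 0.199, limma).

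Of 12 bile acid transport genes, 4 lay above 0 and 8 below, with a median of -0.09. The uptake carrier Slc10a1 was 12813 to 16325 in Brap LKO livers and 16498 to 23464 in controls (log2 difference -0.43, standard error 0.135, adjusted p = 0.1801, limma). Slco1a4, also an uptake carrier, was 471.8, 593, 693 and 318 in Brap LKO livers and 906, 2780, 2199 and 705 in controls, without overlap (log2 difference -1.49, standard error 0.434, adjusted p = 0.156, limma). Without controls 2 and 3 the difference was -0.68 for Slco1a4 (adjusted p = 0.259, limma) and -0.21 for Slc10a1. The basolateral exporter Abcc4 was 121 to 140.4 against 55.9 to 107 (log2 difference 0.80, standard error 0.207, adjusted p = 0.111, limma). The canalicular export pump Abcb11 differed by -0.12 (adjusted p = 0.593) and Slco1b2, the most abundant transporter, by -0.02. Of 10 cholesterol supply genes, 3 lay above 0 and 7 below, with a median of -0.06.

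Hepatocyte markers and those of other cells moved beside these results. Of 11 hepatocyte markers, 1 lay above 0, the median was -0.28 and none was called (sums 2375411 to 3150603 against 2939265 to 4284049), with Alb at 1438250 to 2146523 in Brap LKO livers and 1933909 to 3058028 in controls. All 9 tested cholangiocyte markers lay above 0 (median 0.95), with summed normalized counts of 2015 to 3980 against 1183 to 2192, and Cftr was called (adjusted p = 0.0331, limma) at 6.07 to 17.7 against 0 to 2.10. Of 10 stellate cell and fibroblast markers, 9 lay above 0 (median 0.71, sums 7734 to 12223 against 5091 to 8798), and Pdgfrb rose by 0.91 (adjusted p = 0.0494, limma). Of 10 macrophage and monocyte markers, 9 lay above 0 (median 0.47, sums 4754 to 8277 against 4536 to 6137), and Itgax rose by 1.52 (adjusted p = 0.0402, limma). No marker of these lists was at 0 in every liver. The medians were 0.23 for 10 endothelial, 0.49 for 10 lymphocyte and -0.06 for 5 red blood cell genes, with none called. Among genes of the zone near the central vein, where Cyp7a1 is mainly expressed, 7 of 10 lay above 0 (median 0.31). The ammonium transporter Rhbg rose by 0.94 (adjusted p = 0.0313, limma). The 3 below 0 were Cyp2e1, the most abundant of the list (-0.42), Lect2 (-0.30) and Cyp1a2 (-0.07). The list did not move as one. In either direction, 7 of its 10 genes had an unadjusted p under 0.05 (limma), beside 15.8% of all genes. Brap LKO livers lay wholly above controls in 3 genes and wholly below in 0, where 9.87% of all genes did not overlap. The sums overlapped, at 272587 to 385809 in Brap LKO livers and 312697 to 487580 in controls. Most of each sum was Cyp2e1, at 182343 to 282112 and 232304 to 396511. The 10 periportal genes had a median of -0.10 with none called. The median was -0.12 for 8 female-biased and -0.04 for 16 clock genes, with none called. The part of these shifts in the members' values was not tested.

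Without controls 2 and 3, several of these lists had other values. The median was -0.18 for hepatocyte markers, with 2 of 11 above 0, 0.04 for periportal genes, 0.12 for clock genes, 0.28 for female-biased genes and 0.36 for red blood cell genes. Only 7 female-biased genes were tested here, against 8 with all livers. Cyp2b13, at -1.67 with all livers, no longer reached a mean of 5. Cholangiocyte, stellate cell and macrophage medians stayed above 0, at 0.78, 0.79 and 0.40. Cftr was again called (adjusted p = 0.0402, limma), whereas Rhbg, Itgax and Pdgfrb were not (adjusted p = 0.0702, 0.0807 and 0.105, limma). The endothelial median was 0.46 with Eng and Lyve1 called. Among the pathway lists, all 10 cholesterol supply genes lay below 0 (median -0.28, none called), 8 of 14 FGF15 and FGFR4 signaling genes lay above 0 (median 0.06), and Abcc4 was called in the transport list (log2 difference 1.17, adjusted p = 0.0189, limma). This fit was chosen after seeing the data, and it called more genes in all than the main fit, as given in the closing section. The controls left out had more Abcc4 (83.4 and 107) than those kept (55.9 and 57.9). The same held for Lyve1 (592 and 481 against 169 and 153) and Eng (2389 and 2718 against 1561 and 1736). Leaving them out therefore raised these differences, and the calls are not separate support.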

How the data were processed

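The authors isolated RNA with TRIzol and columns and prepared poly(A) libraries. The submitters' processing notes name FastQC, STAR 2.6.0c, mm10 and DESeq2. The counting tool, annotation release and use of strand are not given in the sources used here. The deposited signal is a gene's read count after the authors divided it by their size factor for the liver, for 24451 genes, of which 187 have no symbol. Every value (100%, tolerance 0.0001 reads) was a whole multiple of 1 read's worth, so reads were recovered. A second deposited table holds the authors' fold changes, errors and p-values and was not used.

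Values were compared as log2(normalized count + 1) with limma 3.58.1 in R 4.3.3 (lmFit, eBayes with trend, no covariates) for genes with a mean of at least 5, with Benjamini-Hochberg adjustment over all of them at 0.05. Fold changes on this scale understate those of low genes. The code was tested on simulated data. Alternatives are given in the closing section, and used edgeR 4.0.16, DESeq2 1.42.0 and sva 3.50.0. Exact permutation tests were two-sided. The study's own test was DESeq2, which models counts and so served as an alternative here. The sources used here do not tie these mice to litters or cages, and p-values measure the spread between these mice, and replicate libraries all differed by more than counting noise.

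The members, 18 further gene lists and tests were chosen with earlier results of these data known. Named are all members, genes of the pathway lists that passed the threshold or did not overlap, the most abundant gene of each list (of the marker lists, only Alb is given), Nr0b2, Nr1h4, Klb, Slc10a1 and Abcb11, called markers, and for the 4 members with the lowest unadjusted p the 3 most correlated genes. Values of 3 genes under this rule are not reported here. The sex-biased genes were named after their values were seen. GENCODE gene models on mm10 gave positions and exon lengths, and RefSeq (GRCm38.p6) gave promoter windows. Tables and plots were made in Python 3.11.15 with pandas 2.3.3, scipy 1.17.1, numpy 2.4.6 and matplotlib 3.10.9.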

Additional observations from a re-analysis of the deposited data

Results flagged for a closer look

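In 44 groups of 4 livers examined, a value far from the others of its group by Dixon's criterion was found in 2, where chance gives about 2.2. Slc27a5 was 20041 in Brap LKO replicate 4, beside 24427 in the nearest liver. Abcb11 was 19372 in Brap F/F replicate 4, beside 15483 in the nearest liver.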

How the results depend on the processing

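The number of members called was 0 under every alternative run. The number of genes called in all was 118, and became 78 with quantile normalization, 479 with the same total per liver, 224 with arrayWeights, 735 with 1 surrogate variable, 625 with DESeq2, 347 and 13 at adjusted p thresholds of 0.1 and 0.01, and 18 to 232 when each liver was left out (lowest for Brap LKO replicate 1 and for Brap F/F replicate 2, highest for Brap F/F replicate 4). Scaling to the same total moved the median of all genes to 0.15. Over 24 alternatives, the log2 difference of Cyp7a1 stayed above 0, from 0.65 with the animal series to 1.72 without Brap LKO replicate 4, with adjusted p from 0.128 to 0.585. Cyp7b1 lay between -0.081 and 1.34, with adjusted p from 0.0734, with a surrogate variable, to 0.920. Leaving out controls 2 and 3 together, added after seeing the data, turned Cyp7b1 to -0.081, Cyp27a1 to 0.0076 and Amacr to -0.11, with 173 genes called. Differences close to 0 changed sign: Hsd3b7 to 0.14 with the same total, 0.029 with the series and 0.0018 with edgeR (-0.12 to 0.053 leaving out livers); Fgfr4 to 0.021 with quantile normalization, 0.14 with the same total, 0.00052 with TMM, 0.037 with arrayWeights and 0.0058 with the series (-0.073 to 0.079 leaving out livers); Amacr to -0.0081 with the series (-0.0038 to 0.15 leaving out livers); Baat to 0.0021 with the same total. Nr0b2 turned to 0.19 and Nr1h4 to -0.054 with the series, Nr1h4 lay between -0.016 (without Brap LKO replicate 3) and 0.084 leaving out livers, and Abcb11 to 0.0082 with quantile normalization and 0.039 with the same total. The causes were not tested. Of the pathway genes, Acox2 passed the threshold with DESeq2 (adjusted p = 0.0213), Prox1 and Abcc4 with the same total, the surrogate variable and DESeq2, Abcc4 also without controls 2 and 3, Slc10a1 with the surrogate variable (adjusted p = 0.0228), and Slco1a4 with the surrogate variable, the replicate block and DESeq2.

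The labels do not say that the replicate numbers pair the mice. Deviations of equally numbered livers correlated at -0.13, 0.0034, 0.20 and 0.29. Unequally numbered livers were not compared, so these values cannot decide whether the numbers pair the mice. With the number as a replicate block, 95 genes and 0 members were called. With exon lengths from the longest transcript, the order of levels in controls was the same, with Slc27a5 at 11861 and Hsd3b7 at 232 per kilobase. This does not settle the Hsd3b7 level, because its shared exons may affect the count itself. With 4 mice per group, spread between mice and not read depth limits these comparisons.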
